A study of Sus scrofa with 2 samples.

Results

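A bidirectional anchor was a 25 kb stretch of the pig genome that served as the right foot of at least 1 chromatin loop and as the left foot of at least 1 other. Loops were thus listed on both of its sides. Whether the loops of both sides occur in the same cells was not tested. Of 5140 distinct loop anchors on chromosomes 1 to 18, 100 met this rule, or 1.95% (95% Wilson interval 1.60% to 2.36%). The other 5040 were unidirectional: 2513 looped only to the right, toward higher coordinates, and 2527 only to the left. The members were picked from the listed loop positions themselves, so their loop numbers, spans and contacts are given as a description. The samples were a single group of 2 biological replicates of pig spleen (Sus scrofa), processed by in situ Hi-C. In this method chromatin is fixed in the nucleus, cut (here with DpnII) and religated, so that DNA ends that lay close together are sequenced as pairs. No genotype, age or treatment is given, and no expression data accompany the contacts, so the cell types of the tissue were not checked against markers. The study addressed transposable elements and genome folding, and repeats were not analysed here.

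Loops of this kind form when the ring-shaped cohesin complex draws in chromatin from both sides until it is halted, most often at the DNA-binding protein CTCF, whose motif has an orientation. A CTCF site stops cohesin arriving from the side its motif faces, so a site usually anchors loops in a single direction. A locus that anchors loops both ways therefore tends to hold CTCF sites of both orientations, and in mammals such divergent sites are common where neighbouring topologically associating domains (TADs, blocks of preferential contact) meet. Active promoters and enhancers can hold loops as well. Neither CTCF binding nor motif orientation was measured in these data.

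The deposited tables held 3261 loops and 1908 TADs on the 18 autosomes. Each table covered the whole series rather than a replicate, so nothing varied by replicate and no test over samples was possible. Wilson intervals below cover counting error only, with anchors taken as independent, and the spread over chromosomes is given beside them. Contacts per autosomal loop ran from 10 to 371, and the sequencing depth behind them is unknown. TADs and loops were called on the same libraries, so neither is independent of the other. Genes were placed with the RefSeq table of Sscrofa11.1, and no header names the build of the deposited coordinates. Around unidirectional anchors, the mean number of protein-coding gene ends per 25 kb bin was 0.860 in the anchor itself and 0.674 to 0.702 in bins 100 to 200 kb away.

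The bidirectional anchors were spread over all 18 autosomes. Chromosome 1 had 14, chromosome 3 had 12, chromosome 4 had 9 and chromosome 12 had 8, whereas chromosomes 8 and 11 had 1 each. As a share of each chromosome's anchors they made up 1.91% ± 0.799 (SD, n = 18 chromosomes), with 0.521% on chromosome 8 at the low end and 3.25% on chromosome 3 at the high end. Most were simple: by listed loop pixels, 71 had exactly 1 loop on each side, 22 had 3 loops in all and 7 had 4. In nearly all members with 3 loops, the 2 loops on the same side led to adjoining bins. Whether such touching pixels are separate loops was not tested. At least 2 loops ran to the left from 18 members, 15 had at least 2 to the right, and 4 had at least 2 on each side. Together they held 236 loop ends from 233 distinct loops, because 3 loops ran from one bidirectional anchor to another. Those 3 loops joined the bin of NXPH3 to that of FAM117A and SLC35B1 on chromosome 12, the bin of TBL1XR1 to chr13:115625001-115650000, and the bin of ABT1 and HMGN4 to chr7:21625001-21650000. A single pair of members adjoined each other, at chr10:33825001-33850000 and chr10:33850001-33875000, where NDUFB6, a subunit of respiratory complex I, ended in both bins and TOPORS, a ubiquitin and SUMO ligase that binds topoisomerase I, in the second.

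The 2 sides of these anchors were alike in length and in contacts. Where a side had several loops, their spans and contacts were averaged into a single arm. The left arm had a median of 150 kb (quartiles 122 and 250 kb), and the right arm 175 kb (quartiles 100 and 275 kb). Loops to the left spanned up to 1350 kb and loops to the right up to 2975 kb, and the shortest listed loops were 100 kb. The left arm was longer at 42 members, the right arm at 44, and both were equal at 14. Within a member the longer arm had a median of 1.47 times the shorter (quartiles 1.14 and 2), the arms came within 25 kb of each other at 37 members, and at 27 they differed by a factor of 2 or more. Spans of the left and right arms had a Spearman's rho of 0.354 over the 100 members, given as a description because the points share their chromosomes and the anchor itself. Contacts had a median of 110 on the left and 110.5 on the right. Observed over expected contacts, where the expected number comes from the ring of pixels around the loop, had medians of 1.96 on the left and 2.02 on the right. The side with more contacts was the left at 49 members and the right at 49, and the shorter arm had more contacts at 53 of the 86 members with unequal arms.

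**Figure D1:**
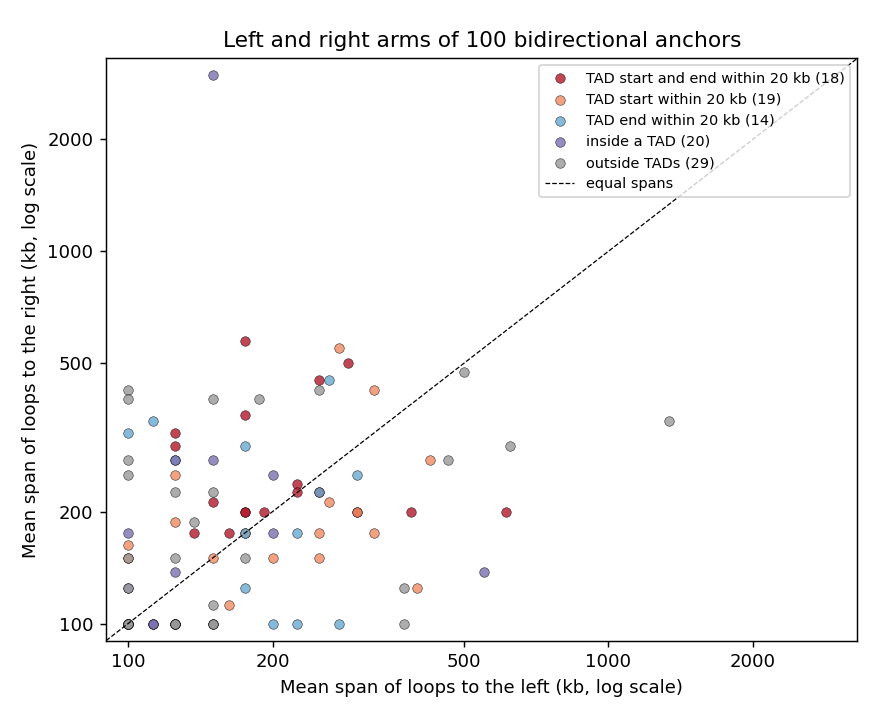
Mean span of the loops to the left (x axis, kb, log scale) against mean span of the loops to the right (y axis, kb, log scale) for the 100 bidirectional anchors, coloured by the TAD edges within 20 kb. Points lie on both sides of the line of equal spans (42 with a longer left arm and 44 with a longer right arm), and the point at 2975 kb is the anchor inside CDK17.

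Ends of protein-coding genes were more frequent at these anchors than at unidirectional ones, by more than counting error with anchors taken as independent. At least 1 end of a protein-coding gene lay in 62 of the 100 bidirectional anchors (62%, interval 52.2% to 70.9%), against 2401 of 5040 unidirectional anchors (47.6%, 46.3% to 49.0%). Over all autosomal anchors the share was 47.9%. The difference was 14.4 percentage points (95% Newcombe interval 4.47 to 23.4). Because every bidirectional anchor has at least 2 loops, the 1059 unidirectional anchors with 2 or more loops are the closer match, and a gene end lay in 48.4% of them (45.4% to 51.5%). Bins with 2 or more gene ends made up 33% of bidirectional anchors, against 21.9% of unidirectional ones. The mean was 1.36 gene ends per bidirectional anchor (SD 1.77, n = 100) and 0.860 per unidirectional anchor (SD 1.24, n = 5040). By chromosome, the share with a gene end was higher at bidirectional anchors on 13 of 18 chromosomes, lower on 4 and equal on 1. Its mean was 57.8% ± 25.7 at bidirectional anchors and 47.0% ± 7.12 at unidirectional ones (SD, n = 18), and the larger spread of the bidirectional anchors goes with the 1 to 14 of them on a chromosome. The difference within a chromosome had a mean of 10.8 points ± 25.7 (SD, n = 18), a spread larger than the mean.

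Part of this excess was shared by the adjoining bins and by bins 100 to 200 kb away. In the bins 25 kb to the left and right, the means were 1.01 and 1.05 around bidirectional anchors. Around unidirectional anchors they were 0.793 and 0.790. Bins 50 and 75 kb away did not share it, except at 75 kb to the right. The means of the bins 50 and 75 kb away were 0.54 to 0.84 around bidirectional anchors and 0.663 to 0.722 around unidirectional ones. In bins 100 to 200 kb from a bidirectional anchor the mean was 0.874 gene ends per bin (range over these bins 0.72 to 0.98), against 0.690 (0.674 to 0.702) around unidirectional anchors. Relative to these bins 100 to 200 kb away, the bidirectional anchor itself held 1.56 times as many, and the unidirectional anchor 1.25 times. The difference was also smaller when whole gene bodies were counted: 79% of bidirectional anchors (70.0% to 85.8%) and 74.3% of unidirectional anchors (73.1% to 75.5%) overlapped a protein-coding gene, a difference of 4.67 points (-4.38 to 11.6). Ends of long noncoding RNA genes lay in 22% of bidirectional anchors (15% to 31.1%) and 13.9% of unidirectional anchors (13% to 14.9%), and in 17.6% of the unidirectional anchors with 2 or more loops. Genes of tRNAs ended in 3 members and those of miRNAs in 1, the bin of HIC1 on chromosome 12. No share over other anchors is given for these, so they are not read as a trait of the members.

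**Figure D2:**
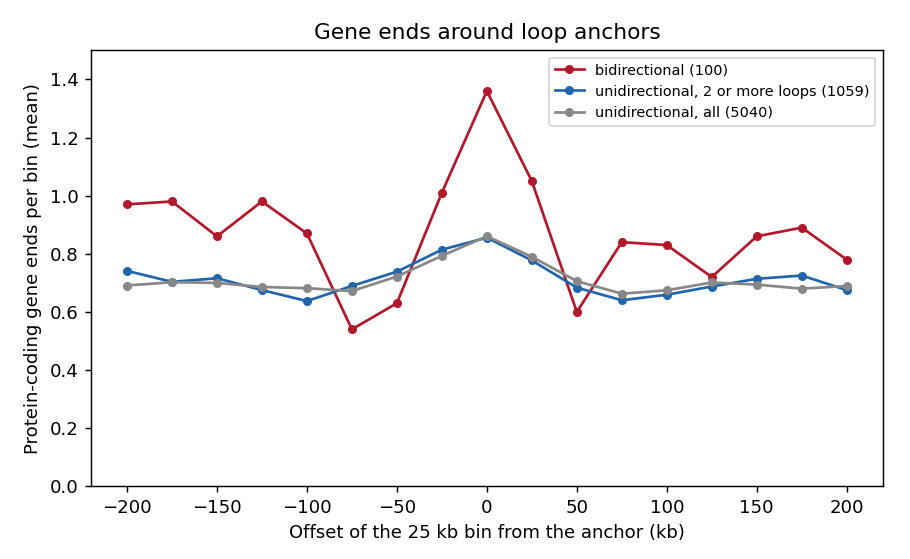
Mean number of protein-coding gene ends per 25 kb bin (y axis) at bins from 200 kb left to 200 kb right of the anchor (x axis, kb), for 100 bidirectional anchors, 1059 unidirectional anchors with 2 or more loops and all 5040 unidirectional anchors. The bidirectional anchors reach 1.36 at the anchor, against 0.860 for all unidirectional anchors.

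Among the 62 members with a gene end, 36 held a single gene, 17 held 2 and 9 held 3 or more. They held 102 genes in all, 0.545% of the 18722 autosomal protein-coding genes, and 17.8% of those genes ended in an anchor of either kind. The genes are described here by role, in groups formed after the anchors were known. Genes of receptors and growth signals formed one group. IGF1R encodes the receptor of insulin-like growth factor 1, and its bin at chr1:137675001-137700000 looped 200 kb to the left with 93 contacts and 150 kb to the right with 110. Another listed loop of 350 kb and 76 contacts joined its partners to each other. IL4R encodes the shared receptor chain of interleukins 4 and 13, and its bin at chr3:19525001-19550000 looped 100 kb to the left with 137 contacts and 100 kb to the right with 165. The left partner held an end of IL21R, the interleukin 21 receptor, and of GTF3C1, and the right partner held NSMCE1. VEGFA, the main growth factor of blood vessels, lay at chr7:38725001-38750000 beside a TAD end. Its left loops, of 125 and 100 kb, had 125 and 132 contacts, and its right loop of 350 kb had 109. SOS2, an activator of Ras, shared its bin with VCPKMT, and a left loop of 225 kb and 139 contacts led to ARF6, a small GTPase of membrane traffic. GNG2 (a G protein subunit), GAB2 (a signalling adaptor), PPP3CC (a calcineurin subunit) and TRIB1 (a pseudokinase) were also at bidirectional anchors.

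Genes of transcription and chromatin formed another group. RB1, the retinoblastoma tumour suppressor that restrains the cell cycle, had the only bidirectional anchor of chromosome 11, at chr11:19300001-19325000. Its left arm of 250 kb had 109 contacts and its right arm of 225 kb had 91. TBL1XR1, a subunit of the NCoR corepressor complex, looped 125 kb to the left with 92 contacts, and to the right 125 kb with 156 and 150 kb with 115. CITED2, a transcriptional coregulator, had unequal arms: a left loop of 550 kb with 65 contacts, and right loops of 125 kb to TXLNB and 150 kb to HECA with 115 and 110. SMNDC1, a splicing factor, looped 150 kb left to ADD3 with 110 contacts. Its right loops, of 200 and 225 kb, had 144 and 126 contacts, and the longer of them reached SMC3, which encodes a core subunit of cohesin. The zinc finger genes KLF13, ZBTB7C, HIC1 and BCL6B, the chromatin genes HMGN4, SMARCD1 and ATF7IP2, and SP140, a nuclear body protein expressed in lymphoid cells, were further members.

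Membrane traffic was represented by RAB14, RAB36, VPS45, SNX20, ARFGAP3, PACSIN2 and ACAP2. VPS45, which acts in vesicle fusion, lay at chr4:99000001-99025000 and was among the anchors with most contacts: 166 and 189 on its left loops and 184 on its right loop, all of 100 or 125 kb. SNX20, a sorting nexin of blood cells, joined a left bin at 100 kb with 148 contacts and the bin of ADCY7, an adenylyl cyclase, at 400 kb to the right with 74. Genes of matrix and cell surface included COL14A1, CAVIN1, and the small leucine-rich proteoglycans PRELP and OPTC. The bin of PRELP and OPTC, chr9:64200001-64225000, had 2 loops on each side. Its left loops had 115 and 112 contacts and the longer reached FMOD, a proteoglycan of the same family. Its right loops had 110 and 130 contacts. CAVIN1, a coat protein of caveolae, looped 100 kb left to ATP6V0A1 with 196 contacts and 175 kb right to STAT5B with 131.

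Some bidirectional anchors stood between immune genes rather than at them. The bin of CFAP126, a gene of cilia, at chr4:89100001-89125000, looped 150 kb left to FCGR3A, an IgG receptor of NK cells and macrophages, with 82 contacts. It looped 125 kb right, with 130 contacts, to FCER1G, which encodes the signalling chain that partners such receptors. The bin of CSNK2B, GPANK1, LY6G5C and C7H6orf47 at chr7:23775001-23800000, in the major histocompatibility complex, looped 100 kb left with 158 contacts to TNF and LTA, cytokines of the tumour necrosis factor family. Its right loop, also 100 kb, had 217 contacts and reached VARS and VWA7. The bin of GPA33 looped 450 kb left to CD247, a signalling chain of the T cell receptor, with 64 contacts. The second of the adjoining bins on chromosome 10, with TOPORS, looped 125 kb right to DDX58, the RIG-I sensor of viral RNA, with 135 contacts. On chromosome 6 the bin of RPL11 looped left to ID3 with 164 contacts and to E2F2 with 140.

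Listed genes ended in bidirectional anchors about as often as all genes did, and no listed marker of a spleen cell type was among them. The 20 lists of cell markers, signalling pathways and gene families held 657 matched genes, of which 3 ended in a bidirectional anchor: IL4R of the cytokines and receptors (1 of 47), HMGN4 of chromatin architecture (1 of 30) and RPL11 of the ribosomal proteins (1 of 73). That is 0.457% of the lists' genes, against 0.545% of all autosomal protein-coding genes. The other 17 lists had no member there, among them B cells (0 of 27), T and NK cells (0 of 41), macrophages and monocytes (0 of 34), erythroid cells (0 of 19) and interferon response (0 of 35). With lists of this size the background share amounts to less than a single gene each. Partner bins held a further 10 list genes, or 1.52%, against 0.935% of all genes. They were CD247, FCER1G, FCGR3A, LTA, TNF, IL21R, DDX58, SMC3, APOA2 and ASGR1, of which APOA2 and ASGR1 came from the list of liver and muscle genes. Counts of 3 and 10 genes are too few to set a list apart.

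The anchors with the most loops were not those of a single kind. Loops are counted here as listed pixels. Of the members with 4 loops, all but the bin of ABT1 and HMGN4 had loops that led to adjoining bins. The bin at chr12:11875001-11900000 held ends of ARSG, SLC16A6 and AMZ2 (a lysosomal sulfatase, a transporter and a metalloprotease) and had the largest sum of contacts among the 100, at 728. Its left loops, of 175 and 150 kb, had 156 contacts each, and its right loops, of 100 and 125 kb, had 248 and 168. The bin of NXPH3 had 1 loop to the left with 93 contacts and 3 to the right with 210, 162 and 99. The bin of UNC50 had 3 loops to the left with 108, 113 and 156 contacts and 1 to the right with 167. Of the 7 members with 4 loops, those at chr18:38050001-38075000 and chr1:162050001-162075000 held no annotated gene. The first had left loops with 141, 117 and 120 contacts and a right loop with 111. The second had 113 and 95 on the left and 105 and 115 on the right.

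The 5 members with the most gene ends had arms of 100 to 187.5 kb. The bin at chr2:142300001-142325000 held 9 gene ends, of APBB3, EIF4EBP3, SLC35A4, SRA1 and an unnamed locus, with a left arm of 150 kb and 108 contacts and a right arm of 100 kb and 166 contacts. The bin of DPH1, OVCA2, HIC1 and SMG6, with 6 gene ends, had 115 contacts on its left loop of 125 kb, and 177 and 140 on its right loops of 175 and 200 kb. BCL6B, SLC16A11 and SLC16A13 shared a bin with 6 gene ends and arms of 100 kb, with 157 contacts on the left and 138 on the right. On chromosome 7 the bin at chr7:20875001-20900000 held 8 ends of genes with locus names only, and that of ABT1 and HMGN4, 125 kb further right, had 2 loops on each side. Across all members, those with a gene end had median arms of 150 kb on each side, and those without had 169 kb on the left and 225 kb on the right.

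The 38 members without an end of a protein-coding gene were not all outside genes. Of these, 17 lay within the body of a gene, among them DAPK1 (a death-associated kinase), PRKCB (protein kinase C beta), NCF4 (a subunit of the phagocyte NADPH oxidase), KDM2A (a histone demethylase), PAG1, PREX1, RAD51B and CTIF. A further 7 had only the end of a noncoding gene or pseudogene, and 14 had no annotated gene. Some of them reached far on both sides. At chr14:1650001-1675000 the left arm spanned 500 kb, to the bin of GADD45G, with 75 contacts, and the right arm spanned 475 kb with 69. At chr13:156875001-156900000 the arms were 325 kb with 72 contacts and 425 kb with 119. The most unequal arms among the 100 belonged to the bin inside CDK17 at chr5:87250001-87275000, which looped 150 kb left to CFAP54 with 117 contacts and 2975 kb right with 32, a ratio of 19.8. The bin at chr5:39750001-39775000 had a left arm of 100 kb with 109 contacts and a right arm of 425 kb with 59. This right loop had 18.1 times its expected contacts, a ratio that rests on a low expected number of 3.25.

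TAD edges were distributed around bidirectional anchors in a different way than around unidirectional ones. A TAD start lay within 20 kb of 37 bidirectional anchors and a TAD end within 20 kb of 32. Unidirectional anchors were more often near the edge that matched their direction than near the other edge, though most were near neither. Of right-only anchors 38.6% were near a TAD start and 5.69% near a TAD end, and of left-only anchors 7.56% were near a start and 44.1% near an end. A start and an end together lay within 20 kb of 18 bidirectional anchors (18%, 11.7% to 26.7%), against 3.39% of unidirectional anchors (2.93% to 3.93%) and 4.63% of those with 2 or more loops (3.52% to 6.06%). The share over all autosomal anchors was 3.68%. The difference from all unidirectional anchors was 14.6 percentage points (8.28 to 23.3), and 6.55 points (1.26 to 16.6) when touching loop pixels were reduced to 1 per group. This share was higher at bidirectional than at unidirectional anchors on 10 chromosomes and lower on 8, and its mean was 17.3% ± 17.8 against 3.41% ± 1.93 (SD, n = 18).

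The share near any TAD edge depended on the window and on the anchors compared. Within 20 kb it was 51% at bidirectional anchors (41.3% to 60.6%) and 44.6% at unidirectional anchors (43.2% to 45.9%), with 44.7% over all anchors, so the intervals of the groups overlapped. Within 10 kb it was 50% at bidirectional and 34.7% at unidirectional anchors, a difference of 15.3 points (5.57 to 24.98), and within 50 kb it was 53% and 60.8%, a difference of -7.83 points (-17.6 to 1.75). Against the 62.7% of unidirectional anchors with 2 or more loops (59.7% to 65.6%) the bidirectional share was 11.7 points lower (interval of the difference -21.8 to -1.68). The median distance to the nearest edge was 12.5 kb at bidirectional anchors (quartiles 0 and 170 kb), against 30 kb at unidirectional anchors (5 and 135 kb) and 15 kb at those with 2 or more loops (0 and 45 kb). No edge lay within 20 kb of 49 members, of which 20 were inside a TAD and 29 outside every listed TAD. Of unidirectional anchors, 26.7% were likewise inside a TAD and 28.75% outside. The shares were 18.6% and 18.7% for unidirectional anchors with 2 or more loops.

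**Figure D3:**
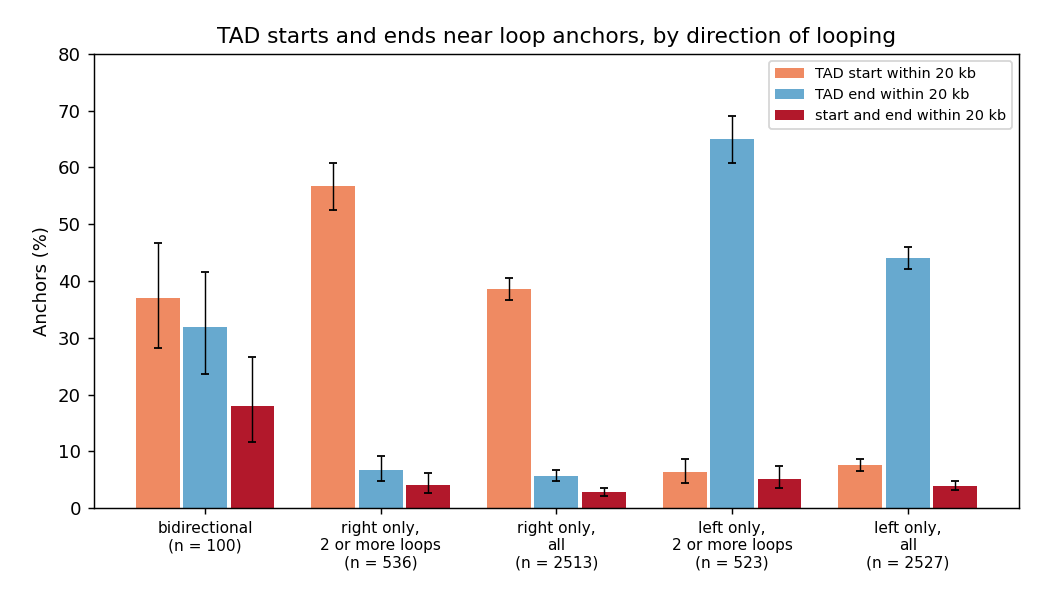
Share of anchors (y axis, %) with a TAD start, a TAD end, or both within 20 kb, for bidirectional anchors and for unidirectional anchors split by direction and loop number. Bars are shares and whiskers 95% Wilson intervals, and the bar for both edges stands at 18% for bidirectional anchors and at 2.83% to 5.16% in the 4 unidirectional classes.

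Many of the members beside a TAD edge had a loop that closed the TAD. A loop was said to close a TAD when its left and right foot lay within 20 kb of that TAD's start and end. Of the 18 members beside a start and an end, 12 closed a TAD on each side, 3 closed one on the left alone, 2 on the right alone and 1 on neither side. Among the 12 were the bins of TOMM20, an import receptor of mitochondria, THADA, AKAP2 and SMNDC1. TOMM20, at chr14:56125001-56150000, had left loops of 300 and 275 kb with 141 and 132 contacts and a right loop of 500 kb with 130. THADA, at chr3:97175001-97200000, had 116 contacts on its left loop of 225 kb, and 126 and 113 on its right loops of 225 and 250 kb. Of the 19 members beside a TAD start alone, 17 closed a TAD with a right loop, and of the 14 beside a TAD end alone, 12 closed one with a left loop. By this definition such members could close a TAD on that side only, and the 49 members away from edges could close none.

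On the arm that faced the TAD the median contacts were the higher: 119 to the right and 91 to the left at the 19 members beside a start, and 113 to the left and 97 to the right at the 14 beside an end. That arm also had the shorter median span, 175 against 200 kb beside a start and 187.5 against 200 kb beside an end. A role of span in the contacts was not tested. Members inside a TAD had the shortest arms of the 5 positions, with medians of 119 kb on the left and 100 kb on the right, and median contacts of 128 on the left and 134.75 on the right. Gene ends were unevenly divided among the positions. They lay in 6 of the 18 members beside a start and an end, 12 of 19 beside a start, 8 of 14 beside an end, 13 of 20 inside a TAD and 23 of 29 outside TADs. Put the other way, 26 of the 62 members with a gene end and 25 of the 38 without were within 20 kb of an edge.

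Loop partners of the same anchor were sometimes looped to each other. At 19 of the 100 members (19%, 12.5% to 27.8%) a listed loop joined a left partner to a right partner and so passed over the anchor. These bridging loops spanned 200 to 700 kb, with a median of 350 kb, and had 38 to 178 contacts, with a median of 91. Their observed over expected contacts had a median of 2.21, and at 10 of the 19 this exceeded both arms. A gene end lay in 8 of the 19 bridged members and in 54 of the 81 unbridged ones. The summed arms had similar medians, 350 kb in bridged and 375 kb in unbridged members. RB1 was bridged by a loop of 475 kb with 55 contacts, TRIB1 by one of 475 kb with 102, and UNC50 by one of 400 kb with 98. The most contacts of a bridging loop, 178 over 225 kb, passed over the bin at chr17:50475001-50500000 inside PREX1. Only 3 of the 19 bridging loops closed a listed TAD.

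In span and contacts the loops themselves resembled other loops below 500 kb. The 233 loops with a bidirectional foot had a median span of 175 kb, as did the 3028 loops between unidirectional anchors. Their median contacts were 112 at bidirectional anchors and 109 between unidirectional ones, and their median observed over expected contacts were 1.98 at bidirectional anchors and 2.003 between unidirectional ones. In loops of 100 to 125 kb the median contacts were 137.5 at bidirectional anchors and 133 between unidirectional ones. In loops of 150 to 225 kb they were 110 and 109, and in loops of 250 to 475 kb they were 84 and 85. In loops of 500 kb and over they were 98 at bidirectional anchors (n = 11), against 65 where 1 of 2 unidirectional feet had 2 or more loops (n = 127) and 55 between all unidirectional anchors (n = 261). Observed over expected ran in the opposite order in this class, with medians of 2.57, 2.64 and 2.83 in the same sequence of groups. The spans were unequal, with medians of 600 kb at bidirectional anchors and 700 kb between all unidirectional ones, and 4 of the 11 loops were touching pixels at the bins of ACAP2 and of LOC100513319. Loops closed a TAD in 28.8% of cases at bidirectional anchors and 29.9% between unidirectional ones. The share was 37.2% where 1 of 2 unidirectional feet had 2 or more loops.

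**Figure D4:**
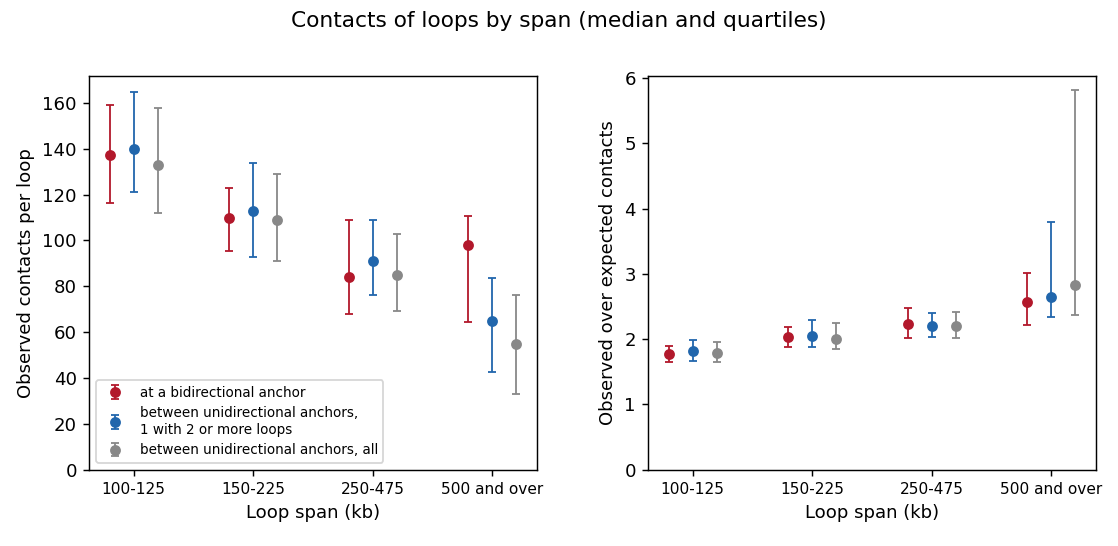
Observed contacts per loop (left panel, y axis) and observed over expected contacts (right panel, y axis) by loop span (x axis, kb), as medians with quartiles, for loops at a bidirectional anchor, loops between unidirectional anchors of which 1 has 2 or more loops, and all loops between unidirectional anchors. The medians lie close together below 500 kb, and in the longest class the medians are 98 (n = 11), 65 (n = 127) and 55 (n = 261) contacts, but 2.57, 2.64 and 2.83 for observed over expected.

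Just outside the rule were adjoining bins of which each looped in one direction. There were 171 pairs of adjoining unidirectional anchors with opposite directions, and in 162 (94.7%, 90.3% to 97.2%) the left-looping bin was on the left, so that the loops pointed away from each other. At a distance of 50 kb this held for 207 of 217 pairs (95.4%, 91.7% to 97.5%). With touching pixels reduced to 1 per group the counts were 153 of 162 at 25 kb and 138 of 145 at 50 kb. At 75 kb the share was lower, with 149 of 246 pairs (60.6%, 54.3% to 66.5%) for all pixels and 95 of 110 (86.4%, 78.7% to 91.6%) for 1 pixel per group. No listed loop was shorter than 100 kb. At 25 or 50 kb the feet of a single loop therefore could not form a pair in the opposite order. At 75 kb, 2 touching pixels of 100 kb loops could do so. How far this limit sets the order was not tested. The 162 diverging pairs at 25 kb resembled the bidirectional anchors in their arms, with medians of 181 kb to the left and 175 kb to the right. A TAD start and a TAD end lay within 20 kb of either bin in 41 of them (25.3%, 19.2% to 32.5%), and a gene end lay in 122, over 2 bins rather than 1. The share of all anchors called bidirectional therefore depends on the bin: when loops of the adjoining bins were counted too, 517 anchors (10.1%) qualified, and 55.1% of them held a gene end.

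**Figure D5:**
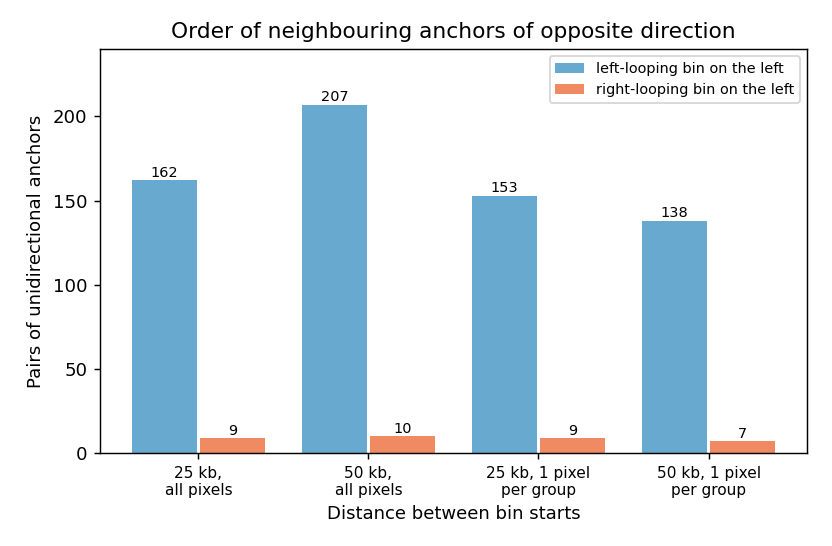
Number of pairs of neighbouring unidirectional anchors with opposite directions (y axis), by the distance between bin starts and with all pixels or 1 pixel per group of touching pixels (x axis). Blue bars are pairs whose left-looping bin is on the left, 162 of 171 at 25 kb, and orange bars are pairs in the opposite order.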

How the data were processed

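In situ Hi-C was run on pig spleen in 2 biological replicates. The submitters' processing notes name HiC-Pro 3.1.0, and per the file headers juicer_tools 1.9.9 produced the loops. Their table gives observed and expected contacts per 25 kb pixel as the authors' signal, without stated normalization, and 4 deposited q-values, of which the largest per loop was taken as its FDR (median 0.0107 and largest 0.0991 at the members). Neither build, pooling nor TAD caller was named (not given in the sources used here). Python 3.11.15 with pandas 2.3.3 and scipy 1.17.1 computed everything from there, and the counting steps were tested on simulated data.

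An anchor was a distinct 25 kb bin on chromosomes 1 to 18. Span was the distance between bin starts. Contacts of a side were averaged over its loops. RefSeq genes of Sscrofa11.1 have no strand in the table used, so a gene end is either annotated end. Of 711 list symbols, 657 matched. Members and gene lists were chosen with earlier results of these data known. The anchors described in full were those with the most loops, the longest shorter arm, the highest arm ratio, the most contacts or the most gene ends, and list genes at members. Other genes were chosen after their values were seen. Promoter motifs were not analysed, as no sequence was used. Alternatives reduced touching pixels to 1, kept the loops with lower FDR, counted adjoining bins, left out a chromosome, and changed windows and gene sets.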

Additional observations from a re-analysis of the deposited data

Results flagged for a closer look

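Outside the autosomes, chromosome Y had 15 bidirectional anchors among its 73 anchors (20.5%, Wilson interval 12.9% to 31.2%), against 1.95% of autosomal anchors and 0.521% to 3.25% on single autosomes. It was listed because these anchors lie outside the chromosomes compared in the report. Its 104 loops lay between positions 8000001 and 42925000, and up to 15 of them met at a single bin. Chromosome X had 1 bidirectional anchor among 72 (1.39%). Contacts on chromosome Y were not compared with those on autosomes.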

How the results depend on the processing

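Bidirectional anchors made up 1.46% of anchors (61 of 4165) with touching pixels reduced to 1 per group, 1.01% (28 of 2766) with only the loops of lower FDR, and 10.1% with adjoining bins counted. The gene-end difference kept its direction under all 9 alternatives, from 4.67 points for whole genes (interval -4.38 to 11.6) to 20.9 with 1 pixel per group. Its interval also reached below 0 with the loops of lower FDR (16.2 points, -2.33 to 31.3). The difference in anchors beside a TAD start and end was 6.55 points with 1 pixel per group. The difference for any TAD edge, 6.44 points (-3.31 to 16.1), was 21.5 with adjoining bins, 15.3 with a 10 kb window (5.57 to 24.98), -11.7 against unidirectional anchors with 2 or more loops and -7.83 with a 50 kb window. Bridged members were 10.7% with the loops of lower FDR, 11.4% with adjoining bins and 28% when partners were joined within 25 kb. Observed over expected contacts differed by -0.0238, and by 0.0458 with the loops of lower FDR. List genes at members were 0.152% with 1 pixel per group, 0.152% with the loops of lower FDR and 2.74% with adjoining bins, where more bins qualify. The alternatives for any TAD edge, contacts and lists, and leaving out chromosome 7, were chosen after seeing the data. Apart from these fewer or more loops and bins, the cause of each change was not tested. The ratio of the arms was 1.5 under every alternative. No paired analysis was possible because both tables cover the series without values per replicate, and no replicate could be left out for the same reason. Depth is unknown, and 100 members limit the precision.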
